A study of Mus musculus with 9 samples.

Results

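The lysosome and autophagy genes described here are 32 genes that were selected by symbol. They comprise 6 genes for lysosomal membrane proteins, 10 for hydrolases, activators and carriers of the lysosomal lumen, 2 for transcription factors of the TFEB family, 3 for the initiation of autophagy, 4 for the conjugation machinery, 5 of the ATG8 family and 2 for autophagy receptors. All 32 were found among the 24420 counted symbols and among the deposited FPKM values, and all 32 passed the filter on low counts that left 12501 genes to test. RNA had been sequenced from pancreatic islets of female mice, cultured overnight after isolation. The 4 knockout (KO) libraries had the genotype Rip-cre; Ogt f/f, in which a rat insulin promoter drives Cre recombinase against floxed Ogt, so that deletion is directed to beta cells. The other cells of an islet keep the gene. The 5 wild-type (WT) libraries had no Cre, and 3 of them were Ogt f/f and 2 were Ogt f/+. Cre and the loss of Ogt cannot be told apart in this design. Sequencing run 1 held 2 KO and 3 WT libraries, and a later run held 2 KO and 2 WT libraries. That later run is named both 2nd run and run 3 in the labels, and is called run 3 here. KO replicates 1 and 2 and WT replicates 1, 2 and 3 are in run 1, and KO replicates 3 and 4 and WT replicates 4 and 5 are in run 3. Values are listed in that order, and WT replicates 1 and 3 are the Ogt f/+ libraries.

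Ogt encodes the enzyme that attaches O-GlcNAc to nuclear and cytosolic proteins. It stood at 23.7 and 24.1 CPM (counts scaled to library size) in the run 1 KO libraries and 30.9 and 39.3 CPM in the run 3 KO libraries, against 69.6, 54.1 and 83.0 CPM in the run 1 WT libraries and 67.0 and 81.8 CPM in the run 3 WT libraries. Every KO library lay below every WT library, and the log2 fold change was -1.30 ± 0.14 (SE), adjusted p = 2.44e-05. Adjusted p-values are those of edgeR's quasi-likelihood test over all tested genes unless another tool is named, a gene was called at an adjusted p under 0.05, and "rose" or "fell" is used for called genes alone. Each library of run 1 held 3796043 to 4462754 counts and each library of run 3 held 5150443 to 6073537. The 32 genes took 0.472% to 0.677% of a library's counts. The ribosomal RNA gene Rn45s took 17.7% to 28.5% of the counts of a run 1 library and 9.62% to 24.3% of a run 3 library, so the depth left for other genes is lower and uneven. Whether each library stands for its own animal is not said in the labels. The p-values therefore set the difference between KO and WT against the variation among these libraries, and that variation may be technical.

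Lysosomes are acidic organelles in which proteases, glycosidases and lipid-cleaving enzymes break down what endocytosis and autophagy deliver. In autophagy, an initiation kinase and a lipid kinase complex start a cup-shaped membrane, a ubiquitin-like system attaches ATG8 proteins to it, and receptors that bind both ATG8 and cargo fill it before it fuses with a lysosome. TFEB and TFE3 bind E-box motifs in the promoters of many of these genes, and in beta cells the pathway turns over insulin granules, mitochondria and misfolded proteins.

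Of the 32 genes, 13 were called between KO and WT islets, which is 40.6% of them, against 18.5% of all tested genes. The 32 were chosen with earlier results of these data known, so the share is a description and not a test. In KO islets 9 fell, or 28.1% against a background of 8.96%, and 4 rose, or 12.5% against a background of 9.56%. The 9 that fell were Lamp2, Ctsl, Neu1, Sqstm1, Ctsb, Optn, Gabarap, Scarb2 and Cd63, and the 4 that rose were Ctsa, Gabarapl2, Atg16l1 and Wipi2. By role, among the 16 genes of the lysosomal membrane and lumen 6 fell and 1 rose, both receptors fell, and among the 7 genes of initiation and conjugation 2 rose and 0 fell. Differences were of moderate size, with log2 fold changes between -0.61 and 0.51, and the median was -0.07 over the 32 genes and 0.02 over all tested genes. Well expressed genes were called more often in general. Where the average log2 CPM reached 5 or more, 48.1% of 27 members were called, against 27.3% of 5145 genes. In that range 33.3% of members fell, against 15.1% of genes, and 14.8% rose, against 12.2% of genes.

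**Figure D1:**
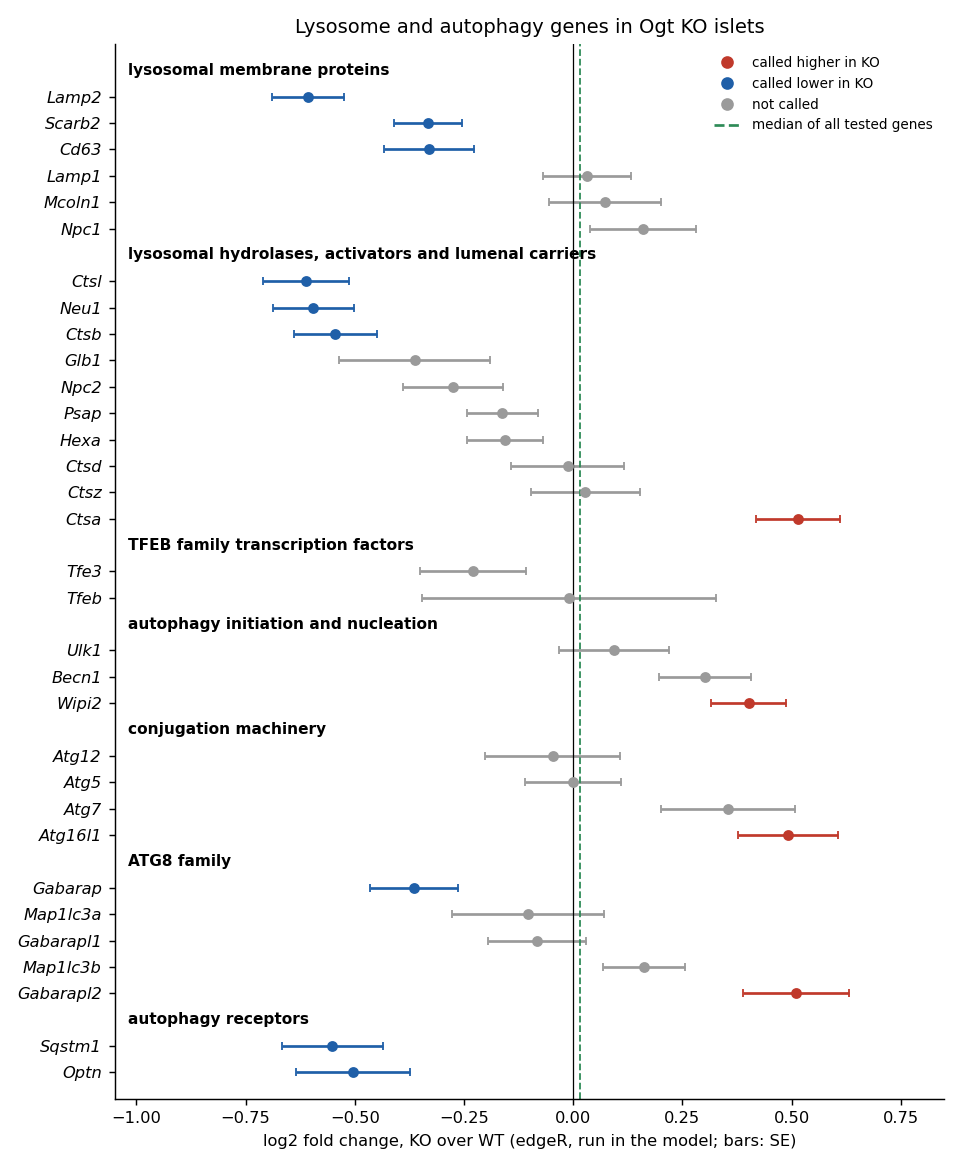
Log2 fold changes of KO over WT for the 32 genes on the x axis, grouped by role, with bars of 1 SE from the edgeR fit with run as a term (4 KO and 5 WT libraries). The 9 genes that fell are blue, the 4 that rose are red, genes not called are grey, and the dashed line is the median of all tested genes at 0.02.

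Among the lysosomal membrane proteins 3 of 6 fell and 0 rose. Lamp2 encodes a heavily glycosylated membrane protein that is needed for autophagosomes to mature and, in 1 of its isoforms, for chaperone-mediated autophagy. The gene lies at chrX:38401357-38456454 on the minus strand (build GRCm38, which is mm10). It had 173 and 193 CPM in the run 1 KO libraries and 179.9 and 195 CPM in the run 3 KO libraries, against 329, 284 and 275 CPM in the run 1 WT libraries and 270.4 and 263 CPM in the run 3 WT libraries. The KO libraries lay below every WT library in both runs, and the log2 fold change was -0.61 ± 0.08 (SE), adjusted p = 1.51e-04, or 0.656 of the WT level. Counts per gene do not separate the isoforms. Scarb2, the receptor that carries glucocerebrosidase to lysosomes, had 192 and 230.0 CPM in the run 1 KO libraries and 191 and 175 CPM in the run 3 KO libraries, against 265, 287 and 276 CPM in the run 1 WT libraries and 216 and 225 CPM in the run 3 WT libraries. It fell within a narrower range (-0.33 ± 0.08 SE, adjusted p = 0.00800), with the KO libraries below the WT libraries within each run. Over both runs KO replicate 2 stood above the run 3 WT libraries. Cd63, a tetraspanin of late endosomes and lysosomes, had 102 and 126 CPM in the run 1 KO libraries and 209 and 250.3 CPM in the run 3 KO libraries, against 172, 169 and 142 CPM in the run 1 WT libraries and 239 and 271 CPM in the run 3 WT libraries. The groups were apart in run 1 and overlapped in run 3. The call (-0.33 ± 0.10 SE, adjusted p = 0.0365) was lost in 15 of 26 alternatives, among them leaving out KO replicate 1 (-0.24, adjusted p = 0.152), KO replicate 2 (adjusted p = 0.0596), KO replicate 3 (adjusted p = 0.0962), WT replicate 1 (adjusted p = 0.0776), WT replicate 2 (adjusted p = 0.0734) or WT replicate 5 (adjusted p = 0.0652).

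The other 3 membrane genes were not called. Lamp1, the close relative of Lamp2, had 776 and 691 CPM in the run 1 KO libraries and 670.4 and 702 CPM in the run 3 KO libraries, against 889.6, 828 and 630.0 CPM in the run 1 WT libraries and 623 and 589 CPM in the run 3 WT libraries. The groups overlapped in run 1, KO was above WT in run 3, and the log2 fold change was 0.03 ± 0.10 (SE), adjusted p = 0.863. Lamp1 overlaps 3317 bases of Grtp1 on the opposite strand, and Grtp1 rose (log2 fold change 0.80, adjusted p = 0.00313). Whether the counting used strand is not given, so reads of such pairs cannot be told apart. Mcoln1, a calcium channel of the lysosomal membrane, stood at 33.1 to 41.9 CPM in KO libraries and at 25.2 to 48.4 CPM in WT libraries (0.07 ± 0.13 SE, adjusted p = 0.739). Npc1, the cholesterol exporter, stood at 38.6 to 56.2 CPM in KO libraries and at 29.2 to 59.1 CPM in WT libraries (0.16 ± 0.12 SE, adjusted p = 0.392).

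In the lysosomal lumen 3 of 10 genes fell and 1 rose, and the 4 that changed were proteases and a sialidase. Ctsl (chr13:64359337-64370890, minus strand) and Ctsb (chr14:63122462-63145923, plus strand) encode cysteine proteases. Ctsl had 279.7 and 195 CPM in the run 1 KO libraries and 155 and 155 CPM in the run 3 KO libraries, against 382, 395 and 324 CPM in the run 1 WT libraries and 234 and 233 CPM in the run 3 WT libraries. Ctsb had 396 and 384 CPM in the run 1 KO libraries and 287 and 319.9 CPM in the run 3 KO libraries, against 706, 650.0 and 539 CPM in the run 1 WT libraries and 379 and 404 CPM in the run 3 WT libraries. For both genes KO lay below WT within each run, while the WT libraries of run 3 lay among the KO libraries of run 1 for Ctsl and near them for Ctsb. Ctsl changed by -0.61 ± 0.10 (SE), adjusted p = 5.65e-04 and Ctsb by -0.54 ± 0.10 (SE), adjusted p = 0.00111. A processed pseudogene lies within Ctsl on the same strand over 395 bases, and how reads with several matches were counted is not given.

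Neu1, Ctsa and Glb1 encode a sialidase, a serine carboxypeptidase that protects its partners from degradation, and a beta-galactosidase, which join in 1 complex in the lysosome. Neu1 (chr17:34931253-34935953, plus strand) had 50.1 and 53.1 CPM in the run 1 KO libraries and 38.9 and 43.1 CPM in the run 3 KO libraries, against 89.2, 82.3 and 75.3 CPM in the run 1 WT libraries and 55.7 and 61.0 CPM in the run 3 WT libraries. All KO libraries were below all WT libraries, with a log2 fold change of -0.59 ± 0.09 (SE), adjusted p = 4.71e-04. Ctsa (chr2:164832873-164841032, plus strand) had 129.8 and 121 CPM in the run 1 KO libraries and 94.9 and 91.6 CPM in the run 3 KO libraries, against 98.9, 97.5 and 70.1 CPM in the run 1 WT libraries and 64.8 and 64.0 CPM in the run 3 WT libraries. KO was above WT within each run, the opposite direction to Neu1, with a log2 fold change of 0.51 ± 0.10 (SE), adjusted p = 0.00182. Glb1 had 18.9 and 12.7 CPM in the run 1 KO libraries and 11.3 and 17.2 CPM in the run 3 KO libraries, against 20.8, 23.0 and 21.4 CPM in the run 1 WT libraries and 15.1 and 19.3 CPM in the run 3 WT libraries and was not called (-0.36 ± 0.17 SE, adjusted p = 0.162). Ctsa overlaps Neurl2 and Pltp on the opposite strand, both of which were counted and neither of which passed the filter on low counts. Glb1 overlaps Tmppe on the same strand over 6172 bases, and Tmppe was not called (0.18, adjusted p = 0.399). Other members overlap neighbours as well, and not all of these are named here.

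Counting Glb1, 6 of the 10 genes of the lumen were not called. Ctsd, the main aspartic protease, had 241 to 388 CPM in KO libraries and 228 to 402 CPM in WT libraries, with a log2 fold change of -0.01 ± 0.13 (SE), adjusted p = 0.956. Ctsz, a cysteine carboxypeptidase, had a log2 fold change of 0.03 ± 0.12 (SE), adjusted p = 0.903. Negative values that missed the threshold were found for Npc2, the soluble cholesterol carrier (-0.27 ± 0.11 SE, adjusted p = 0.109), for Psap, the precursor of the saposins that activate sphingolipid hydrolases (-0.16 ± 0.08 SE, adjusted p = 0.180), and for Hexa, the alpha subunit of beta-hexosaminidase A (-0.16 ± 0.09 SE, adjusted p = 0.232). For these 3 genes KO lay below WT in run 3 and overlapped WT in run 1. Without WT replicate 3 both Npc2 and Psap were called lower, and without KO replicate 1 Npc2 was.

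**Figure D2:**
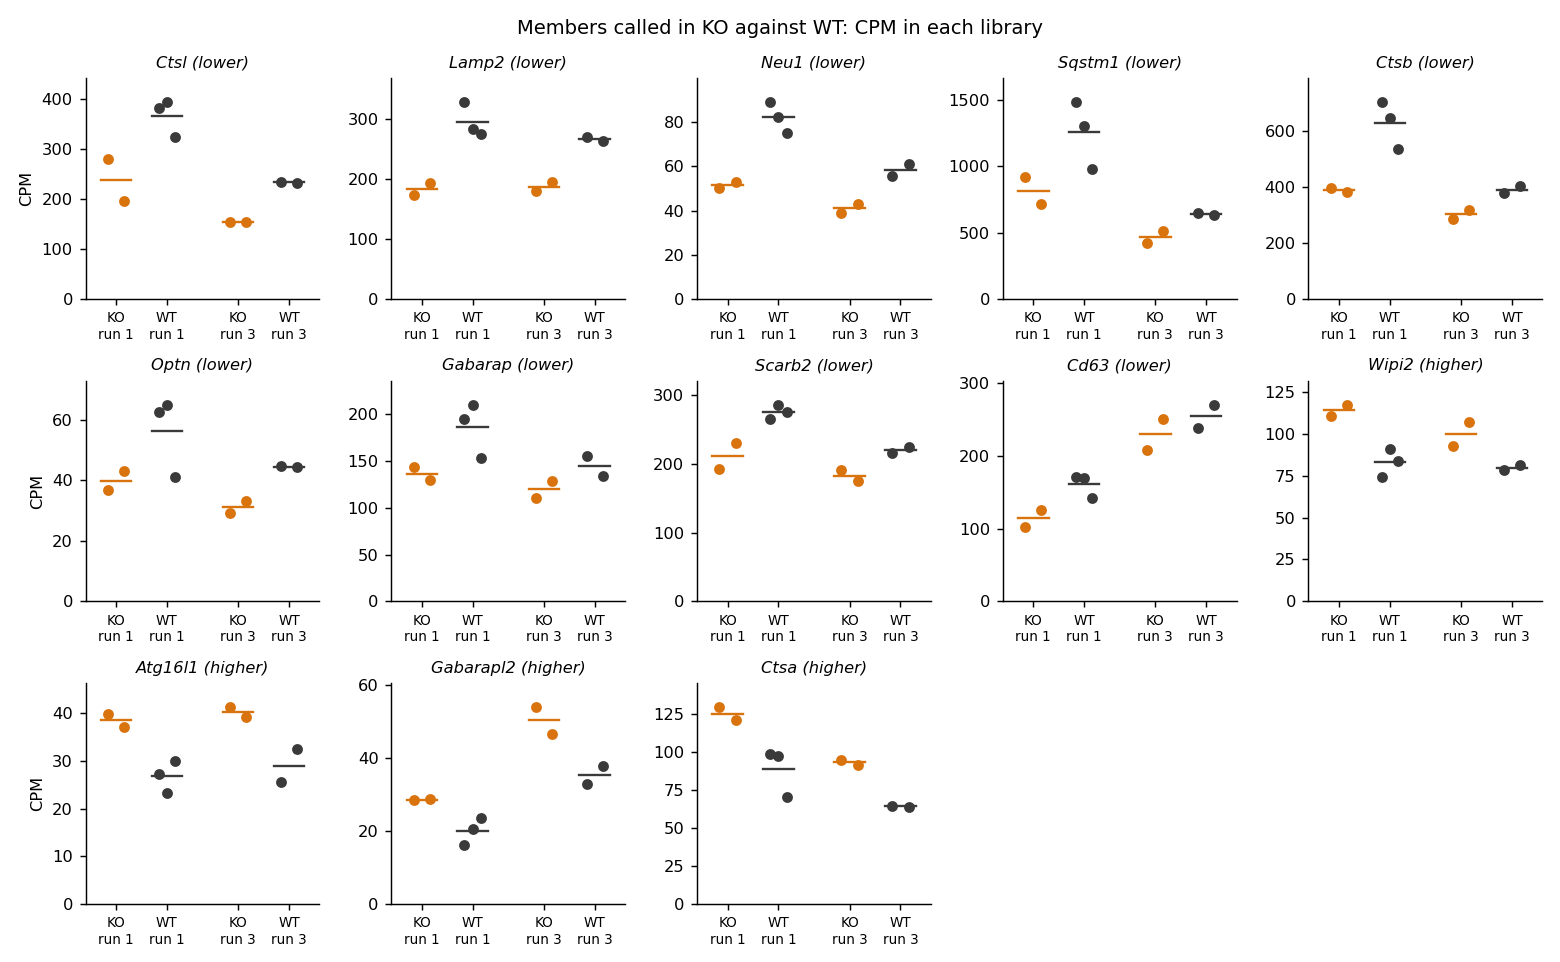
CPM of the 13 called genes in each library (y axis, linear from 0; KO orange, WT dark grey), by sequencing run, with a line at the mean of each group in a run. In 11 of the 13 panels the KO points lie wholly on 1 side of the WT points within both runs; Cd63 overlaps in run 3 and Optn in run 1.

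The transcription factors themselves were not called. Tfeb was the least abundant of the 32 genes, with 5.54 and 4.63 CPM in the run 1 KO libraries and 3.49 and 4.70 CPM in the run 3 KO libraries, against 8.30, 6.80 and 2.73 CPM in the run 1 WT libraries and 3.61 and 3.38 CPM in the run 3 WT libraries, from 19 to 32 reads in a KO library and 11 to 34 in a WT library. Its groups overlapped in both runs, and at this depth the log2 fold change of -0.01 ± 0.34 (SE), adjusted p = 0.987 leaves room for a change of the size seen in the called genes. Tfe3 had 26.9 to 31.1 CPM in KO libraries and 26.8 to 41.0 CPM in WT libraries, with a log2 fold change of -0.23 ± 0.12 (SE), adjusted p = 0.209. For Tfe3 KO lay below WT in run 1 (-0.42, adjusted p = 0.127 in that run alone) and overlapped WT in run 3 (-0.05). These are transcript levels, and the activity of both factors is set largely by where the protein is in the cell.

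Promoters were searched for the E-box CACGTG, which reads the same on both strands. The RefSeq windows (GRCm38) ran from 250 bases before to 50 bases after an annotated start of a gene. A window was found for 26 of the 32 genes, and none was found for Ctsb, Npc1, Map1lc3a, Becn1, Atg12 and Atg16l1. The E-box stood in 8 of the 26 (30.8%), against 11.8% of 9506 tested genes with a window and 7.15% of all 32851 windows. By call, it was in 1 of 3 genes that rose (Ctsa), in 1 of 8 that fell (Ctsl), and in 6 of 15 that were not called (Lamp1, Mcoln1, Ctsd, Glb1, Atg5 and Atg7). The longer TCACGTGA, which contains the E-box, was in Ctsa, Ctsd and Mcoln1, 11.5% of the 26 against 2.23% of tested genes. The full CLEAR consensus, which is longer still, was in 0 of the 26 and in 0.821% of tested genes. The motif TGACNNNGC, known to be bound by NRF2 and searched on both strands, was in 6 of the 26 (23.1%) and in 17.3% of tested genes. TGATGCAA, bound by ATF4 with a C/EBP partner and also searched on both strands, was in 0 of the 26 and in 0.747% of tested genes. A match in a window is a description of its letters and not a bound site.

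The windows printed here are those of the gene with E-boxes that rose, the gene with E-boxes that fell, the gene with the most E-boxes, which was not called, and the 2 genes that fell in every alternative and hold no E-box. They are written 5′ to 3′ on the gene's own strand, with each CACGTG in capitals. Ctsa lies at chr2:164833523-164833822 (plus strand), Ctsl at chr13:64370471-64370770 (minus strand), Lamp1 at chr8:13158911-13159210 (plus strand), Lamp2 at chrX:38456411-38456710 (minus strand) and Neu1 at chr17:34931003-34931302 (plus strand).
Ctsa: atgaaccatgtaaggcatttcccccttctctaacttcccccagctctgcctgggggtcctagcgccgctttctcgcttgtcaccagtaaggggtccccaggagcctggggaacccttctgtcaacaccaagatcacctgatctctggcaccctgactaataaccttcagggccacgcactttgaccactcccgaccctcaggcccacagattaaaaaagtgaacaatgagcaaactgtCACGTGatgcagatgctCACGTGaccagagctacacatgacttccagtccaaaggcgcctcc
Ctsl: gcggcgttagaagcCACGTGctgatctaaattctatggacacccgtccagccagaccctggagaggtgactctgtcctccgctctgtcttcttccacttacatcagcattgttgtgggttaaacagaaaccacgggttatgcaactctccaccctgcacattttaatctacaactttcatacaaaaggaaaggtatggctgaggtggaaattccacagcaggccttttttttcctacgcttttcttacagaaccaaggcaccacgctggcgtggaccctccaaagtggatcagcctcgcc
Lamp1: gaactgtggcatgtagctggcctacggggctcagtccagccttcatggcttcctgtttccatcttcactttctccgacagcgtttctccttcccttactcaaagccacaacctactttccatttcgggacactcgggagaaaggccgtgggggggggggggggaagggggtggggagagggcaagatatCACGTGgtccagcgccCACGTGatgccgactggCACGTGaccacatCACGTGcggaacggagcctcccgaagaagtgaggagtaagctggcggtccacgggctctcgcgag
Lamp2: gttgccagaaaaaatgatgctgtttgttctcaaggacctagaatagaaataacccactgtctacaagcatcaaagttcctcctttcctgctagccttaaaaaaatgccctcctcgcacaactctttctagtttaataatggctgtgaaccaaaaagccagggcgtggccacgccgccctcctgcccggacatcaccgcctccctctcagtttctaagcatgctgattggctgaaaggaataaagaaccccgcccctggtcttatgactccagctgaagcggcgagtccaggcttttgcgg
Neu1: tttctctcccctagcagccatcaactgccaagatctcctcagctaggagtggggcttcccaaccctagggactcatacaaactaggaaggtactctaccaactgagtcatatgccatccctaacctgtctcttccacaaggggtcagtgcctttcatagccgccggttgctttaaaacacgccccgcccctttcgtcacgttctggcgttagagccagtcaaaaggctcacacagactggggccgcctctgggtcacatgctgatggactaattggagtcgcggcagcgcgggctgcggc

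In the Lamp1 window the 4 E-boxes stand close together just before the start. In Ctsa they lie on either side of the start used for the printed window, and in Ctsl the E-box is at the far end. The printed Ctsa window lies inside the gene, which begins at chr2:164832873. The other Ctsa window, at chr2:164832622-164832921, holds that position and has 0 E-boxes. The windows of Ctsl, Atg7, Scarb2, Cd63 and Wipi2 also lie inside their annotated genes. Scarb2, Cd63 and Wipi2 were called and are counted as having 0 E-boxes, and the sequence at the outermost annotated start of these genes was not searched.

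Of the 3 genes for the first steps of autophagy 1 rose and 0 fell. Wipi2, which reads the lipid made at the forming membrane and recruits ATG16L1, had 111 and 118 CPM in the run 1 KO libraries and 93.0 and 107 CPM in the run 3 KO libraries, against 74.0, 91.0 and 83.8 CPM in the run 1 WT libraries and 78.2 and 81.4 CPM in the run 3 WT libraries. Every KO library was above every WT library, with a log2 fold change of 0.40 ± 0.09 (SE), adjusted p = 0.00416, or 1.32 times the WT level. Becn1, a subunit of the lipid kinase complex, was the gene nearest to the threshold on the other side (0.30 ± 0.11 SE, adjusted p = 0.0574), with 91.5 and 80.3 CPM in the run 1 KO libraries and 90.2 and 91.4 CPM in the run 3 KO libraries, against 81.3, 53.4 and 65.1 CPM in the run 1 WT libraries and 74.2 and 79.6 CPM in the run 3 WT libraries. KO was above WT in run 3, and in run 1 KO replicate 2 lay just below WT replicate 1; with WT replicate 1 left out Becn1 was called higher. Ulk1, the initiating kinase, had 61.2 and 50.4 CPM in the run 1 KO libraries and 43.9 and 40.5 CPM in the run 3 KO libraries, against 44.0, 43.4 and 42.5 CPM in the run 1 WT libraries and 42.6 and 54.9 CPM in the run 3 WT libraries. It was above WT in run 1 and overlapped WT in run 3, and over both runs its log2 fold change was 0.09 ± 0.13 (SE), adjusted p = 0.655.

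Within the conjugation machinery Atg16l1, which places the ATG12-ATG5 conjugate on the membrane, rose alone. It had 39.8 and 37.2 CPM in the run 1 KO libraries and 41.4 and 39.2 CPM in the run 3 KO libraries, against 27.4, 23.3 and 30.1 CPM in the run 1 WT libraries and 25.6 and 32.4 CPM in the run 3 WT libraries. All KO libraries were above all WT libraries, with a log2 fold change of 0.49 ± 0.11 (SE), adjusted p = 0.00759. The small nuclear-body RNA gene Scarna6 lies within Atg16l1 on the same strand over 265 bases and also rose (0.74, adjusted p = 0.0139), so part of the reads assigned to 1 could come from the other. Atg7, the activating enzyme for both ubiquitin-like systems, had a log2 fold change of 0.36 ± 0.15 (SE), adjusted p = 0.122, from 16.1 to 24.6 CPM in KO libraries and 14.8 to 20.4 CPM in WT libraries. Atg5 and Atg12, whose products are joined to each other, had log2 fold changes of 0.00 and -0.05, with adjusted p-values of 0.999 and 0.868. Atg5 reached at most 42.3 CPM in KO libraries and 40.2 CPM in WT libraries, and Atg12 had 16.6 to 23.8 CPM in KO libraries and 13.9 to 24.5 CPM in WT libraries. For both, the groups overlapped over the 9 libraries.

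Of the 5 ATG8 family genes 1 fell, Gabarap, and 1 rose, Gabarapl2. Gabarap had 144 and 129.5 CPM in the run 1 KO libraries and 111 and 129 CPM in the run 3 KO libraries, against 195, 210.5 and 154 CPM in the run 1 WT libraries and 156 and 134 CPM in the run 3 WT libraries. KO was below WT within each run, and the log2 fold change was -0.36 ± 0.10 (SE), adjusted p = 0.0194. Gabarapl2, also called GATE-16, had 28.5 and 28.7 CPM in the run 1 KO libraries and 54.0 and 46.7 CPM in the run 3 KO libraries, against 16.1, 20.4 and 23.6 CPM in the run 1 WT libraries and 33.0 and 37.8 CPM in the run 3 WT libraries. KO was above WT within each run, and the log2 fold change was 0.51 ± 0.12 (SE), adjusted p = 0.00884. The other members were not called: Map1lc3b had 0.16 ± 0.09 (SE), adjusted p = 0.249, Map1lc3a had -0.10 ± 0.17 (SE), adjusted p = 0.727 and Gabarapl1 had -0.08 ± 0.11 (SE), adjusted p = 0.657.

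Both calls in the ATG8 family depended on settings. Gabarap was not called without KO replicate 2 (adjusted p = 0.0680), KO replicate 3 (adjusted p = 0.0626) or WT replicate 4 (adjusted p = 0.0577). Gabarapl2 was not called in limma fits on the deposited FPKM values (0.31, adjusted p = 0.304 with a pseudocount of 1). Its FPKM was 14.6 and 9.74 in the run 1 KO libraries and 52.4 and 46.2 in the run 3 KO libraries, against 6.30, 12.6 and 12.2 in the run 1 WT libraries and 35.4 and 39.7 in the run 3 WT libraries. On that scale the groups overlapped in run 1 and did not in run 3.

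**Figure D3:**
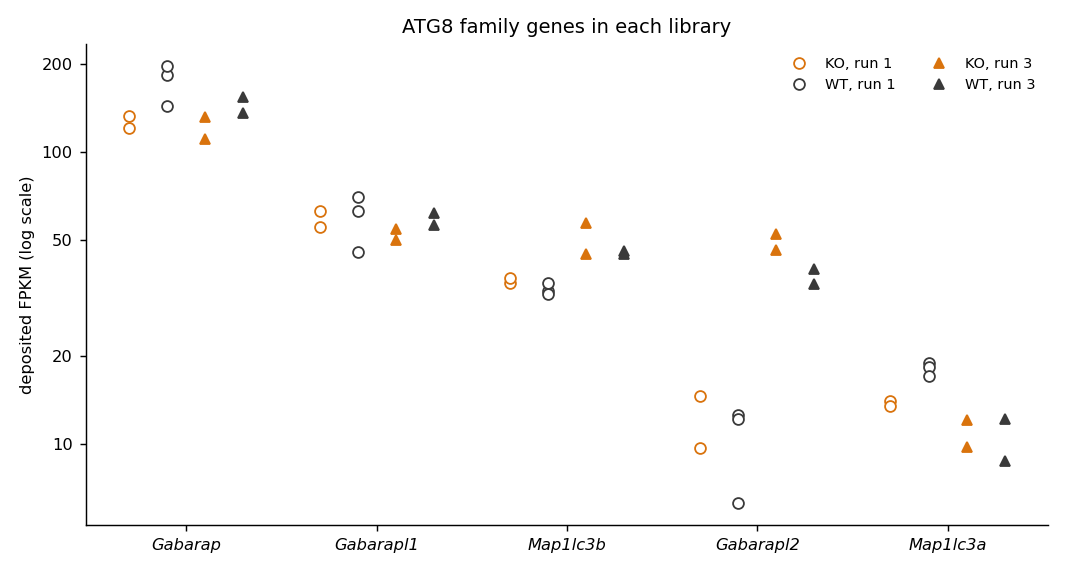
Deposited FPKM of the 5 ATG8 family genes in each library (y axis, log scale; KO orange, WT dark grey; open circles run 1, filled triangles run 3). Gabarap is the most abundant in all 9 libraries, and Gabarapl2 lies between 35.4 and 52.4 FPKM in run 3 and between 6.30 and 14.6 FPKM in run 1.

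Both autophagy receptors fell. Sqstm1, which encodes p62 and binds ubiquitylated cargo and ATG8 proteins, had the highest FPKM of the 32 genes in the mean over the 9 libraries. Its values were 916 and 715 CPM in the run 1 KO libraries and 418 and 508 CPM in the run 3 KO libraries, against 1484, 1306 and 977 CPM in the run 1 WT libraries and 646 and 633 CPM in the run 3 WT libraries. KO lay below WT within each run, with a log2 fold change of -0.55 ± 0.12 (SE), adjusted p = 0.00395, or 0.682 of the WT level. It overlaps 750 bases of Mrnip on the opposite strand, which was counted under the older symbol 3010026O09Rik and was not called (0.05, adjusted p = 0.933). Optn, a receptor for mitochondria and bacteria, had 36.8 and 43.1 CPM in the run 1 KO libraries and 29.1 and 33.0 CPM in the run 3 KO libraries, against 62.8, 65.1 and 41.0 CPM in the run 1 WT libraries and 44.9 and 44.3 CPM in the run 3 WT libraries. In run 1 WT replicate 3 lay between the KO libraries, and in run 3 the groups were apart, with a log2 fold change of -0.50 ± 0.13 (SE), adjusted p = 0.0136. The Optn call was lost without KO replicate 1 (-0.47, adjusted p = 0.0503) and in the FPKM fits (-0.45, adjusted p = 0.0519 with a pseudocount of 1).

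The differences were examined within each run, since the runs differ in depth and in the number of genes detected. A run 1 library had counts for 14485 to 15136 genes, and a run 3 library for 20069 to 21067. The KO libraries lay wholly above or wholly below the WT libraries in both runs for 11 of the 32 genes, all of them called, against 22.9% of tested genes. Of these 7 were below, against 11% of tested genes, and 4 were above, against 11.9%. Over the 9 libraries, Lamp2, Neu1, Wipi2 and Atg16l1 did not overlap, and 11.1% of tested genes did not. Fitted alone, run 1 called 4 of the 32 genes, all lower (Lamp2, Ctsb, Neu1 and Ctsl), against 6.05% of tested genes, and run 3 called 7, Ctsa higher and Ctsl, Lamp2, Sqstm1, Ctsb, Neu1 and Optn lower, against 8.17%. All 13 called genes had the same sign in both runs. The interaction of genotype and run was called for 0 of the 32 genes and for 0 of all tested genes (0%) by edgeR, and DESeq2 called 1 gene, not a member. At an unadjusted p under 0.05 the interaction held 2 of the 32 members, a share near the 5.95% of tested genes, so the count does not set the members apart. They were Mcoln1, with log2 fold changes of -0.23 in run 1 and 0.39 in run 3, and Ulk1, with 0.35 in run 1 and -0.21 in run 3. The adjusted p of edgeR for the interaction was 0.795 for each. In a model without the run term 2 members rose and 2 fell (Wipi2 and Atg16l1, Lamp2 and Neu1), against 5.38% of tested genes called in either direction.

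**Figure D4:**
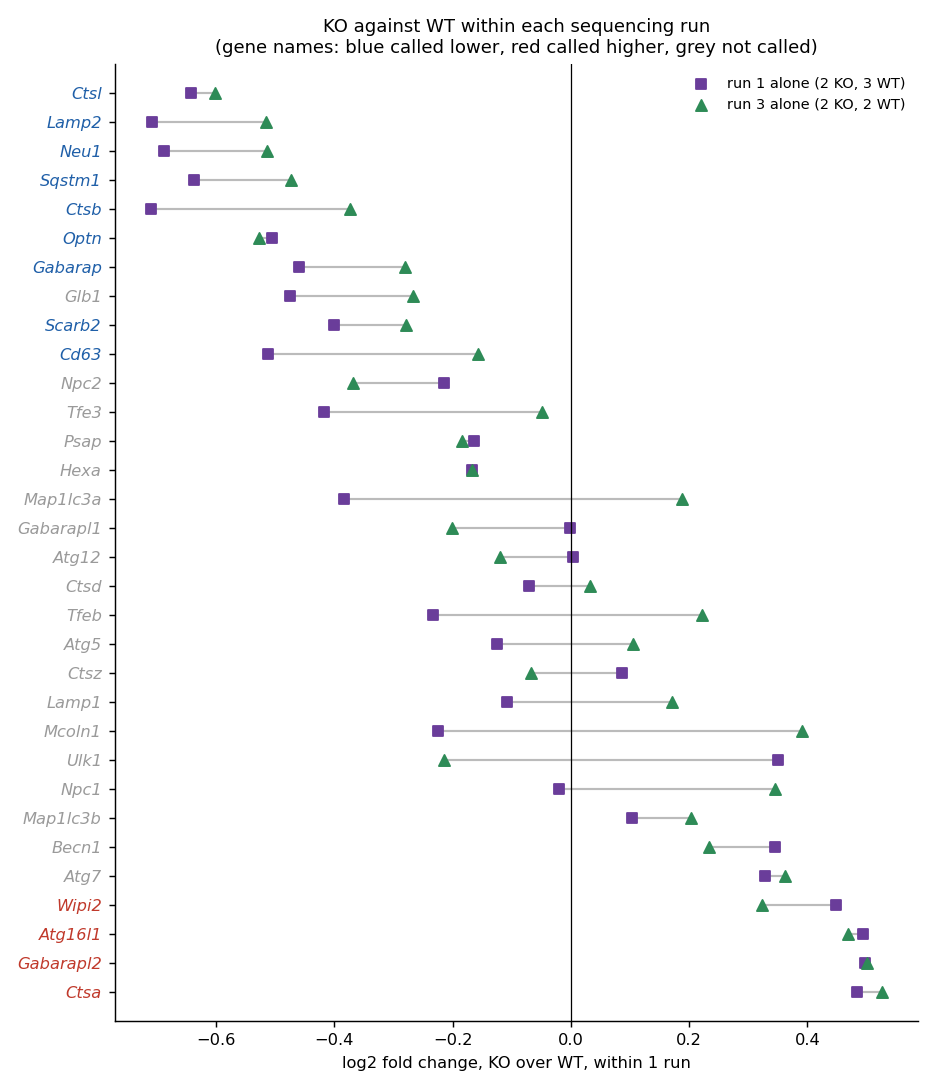
Log2 fold change of KO over WT within run 1 (squares, 2 KO and 3 WT libraries) and within run 3 (triangles, 2 KO and 2 WT libraries) for the 32 genes, with names coloured by the call over both runs. The 13 called genes have both marks on the same side of 0. Mcoln1, Ulk1, Lamp1, Npc1, Ctsd, Ctsz, Tfeb, Atg5, Atg12 and Map1lc3a, none of them called, have 1 on each side.

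The members also differed between the runs. Run 3 against run 1, 16 of the 32 genes were called, against 31.4% of tested genes. Of these 14 were lower in run 3, against 16.3% of tested genes, with the largest log2 fold changes of run 3 over run 1 for Sqstm1 (-0.90), Ctsz (-0.76) and Ctsl (-0.64). The 2 that were higher, against 15.1% of tested genes, were Cd63 (0.82) and Gabarapl2 (0.82). On the deposited FPKM scale the gap for Cd63 was wider, 245 to 321 FPKM in run 3 and 45.8 to 77.9 FPKM in run 1. Without WT replicate 4 the run term called 11 members and 2844 of 12052 tested genes, against 3921 of 12501 tested genes with all libraries.

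Levels per length ranked the genes by role only in part. Averaged over the 9 libraries, Sqstm1 (411 FPKM), Lamp1 (320.1 FPKM), Psap (295 FPKM), Cd63 (160.0 FPKM), Ctsd (151 FPKM), Gabarap (146 FPKM) and Ctsl (130.1 FPKM) were the most abundant. The place of Cd63 depended on run. It had 45.8 to 77.9 FPKM in run 1, below Ctsd, Gabarap and Ctsl in each library, and 245 to 321 FPKM in run 3. By group, Sqstm1 averaged 311 ± 101 FPKM in KO libraries and 491 ± 185 FPKM in WT libraries, and Lamp1 averaged 321 ± 18.2 FPKM in KO libraries and 319.6 ± 47.4 FPKM in WT libraries (SD, n = 4 KO and 5 WT). Sqstm1 was thus below Lamp1 in the KO mean and above it in the WT mean, within spreads that overlap. The order in KO libraries differed by run. Sqstm1 had 437 and 346 FPKM in the run 1 KO libraries, above Lamp1 at 329 and 295 FPKM. In the run 3 KO libraries Sqstm1 had 211 and 251 FPKM, below Lamp1 at 323 and 337 FPKM. The 4 conjugation genes averaged between 4.51 and 15.6 FPKM over the libraries. Atg16l1 stood at 11.3 ± 0.346 FPKM in KO libraries and 8.22 ± 1.01 FPKM in WT libraries. Tfeb, the lowest, stood at 1.93 ± 0.321 FPKM in KO libraries and 1.92 ± 0.976 FPKM in WT libraries.

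Other genes of the pathway, in 8 lists that hold none of the 32, were called for 44 of 159 tested genes (27.7%, against 18.5% of all tested genes). Of these 28 were lower (17.6%, against 8.96%) and 16 were higher (10.1%, against 9.56%). Among all genes with an average log2 CPM of 5 or more, 27.3% were called and 15.1% were lower, and the lists were not divided by level. The lists were chosen with earlier results of these data known, so their shares are not a separate test. Of 37 other hydrolases and activators 11 fell (29.7%, against 8.96% of all tested genes) and 4 rose (10.8%, against 9.56%), with a median log2 fold change of -0.14. Among them were Idua, an iduronidase (-1.03 ± 0.17 SE, adjusted p = 8.16e-04), Scpep1, a serine carboxypeptidase (-0.74 ± 0.12 SE, adjusted p = 6.33e-04), and Asah1, acid ceramidase (-0.61 ± 0.08 SE, adjusted p = 9.35e-05). Sumf1, which activates sulfatases in the endoplasmic reticulum, rose more than any other gene of these lists (1.74 ± 0.09 SE, adjusted p = 1.24e-08), with 221 ± 23.2 CPM in KO libraries and 66.6 ± 5.66 CPM in WT libraries (SD, n = 4 KO and 5 WT). Of 23 other membrane proteins and transporters 4 fell, among them the chloride-proton exchanger Clcn7 (-1.33 ± 0.19 SE, adjusted p = 2.07e-04) and the cation channel Tpcn1 (-0.55 ± 0.11 SE, adjusted p = 0.00315), and 2 rose, the lipid transporter Abca2 (0.80 ± 0.08 SE, adjusted p = 5.97e-06) and the amino acid transporter Slc36a1 (0.60 ± 0.12 SE, adjusted p = 0.00236). Of 21 sorting genes 5 fell, including the retromer core Vps35 (-0.45), the phosphotransferase subunit Gnptg (-0.51) and the ESCRT gene Hgs (-0.31), and 2 rose, including the tethering subunit Vps18 (0.41). The 16 subunits of the proton pump were split, with Atp6v1d (0.55) and Atp6v1f (0.28) higher and Atp6ap2 (-0.37) and Atp6v0e2 (-0.36) lower, and in 26 alternatives Atp6v1f was lost in 19, Atp6v0e2 in 10 and Atp6ap2 in 5. Among the sorting genes Hgs was lost in 11, Vps18 in 9 and Gnptg in 3 of them.

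On the autophagy side, 20 other genes of initiation and the growing membrane gave 3 that rose (15%, against 9.56% of all tested genes) and 0 that fell (against 8.96%), shares that differ from the background by few genes. They were Atg14 (0.61 ± 0.14 SE, adjusted p = 0.00709) and Pik3c3 (0.34, adjusted p = 0.0470), which act in the same lipid kinase complex as Becn1, and the lipid transfer gene Atg2b (0.27, adjusted p = 0.0377). Pik3c3 was lost in 25, Atg2b in 19 and Atg14 in 5 of 26 alternatives. Of 7 other conjugation genes 0 were called (edgeR; 2 at an unadjusted p under 0.05), and the lowest p-values were those of Atg4c (-0.45, adjusted p = 0.0882) and Atg16l2 (0.35, adjusted p = 0.147). Among 21 other receptors and fusion genes 3 fell and 3 rose. The glycogen-binding Stbd1 fell most (-1.38 ± 0.16 SE, adjusted p = 3.19e-05), with 19.4 ± 5.89 CPM in KO libraries and 52.6 ± 16.5 CPM in WT libraries (SD, n = 4 KO and 5 WT). The mitochondrial receptor Fundc1 (-0.66) and Calcoco1 (-0.39) also fell, and the mitochondrial kinase Pink1 rose (0.47). The Pink1 call was lost in 12 of 26 alternatives, among them without KO replicate 1 and without KO replicate 4, and its log2 fold change was 0.70 in run 1 and 0.19 in run 3, where the groups overlapped. Of 14 TFEB relatives and regulators of TFEB at the lysosome, the folliculin partners Fnip1 (-0.44) and Fnip2 (-0.44) and the Rag GTPase Rragc (-0.29) fell and 0 rose, with Rragc lost in 17 and Fnip2 in 4 of 26 alternatives.

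**Figure D5:**
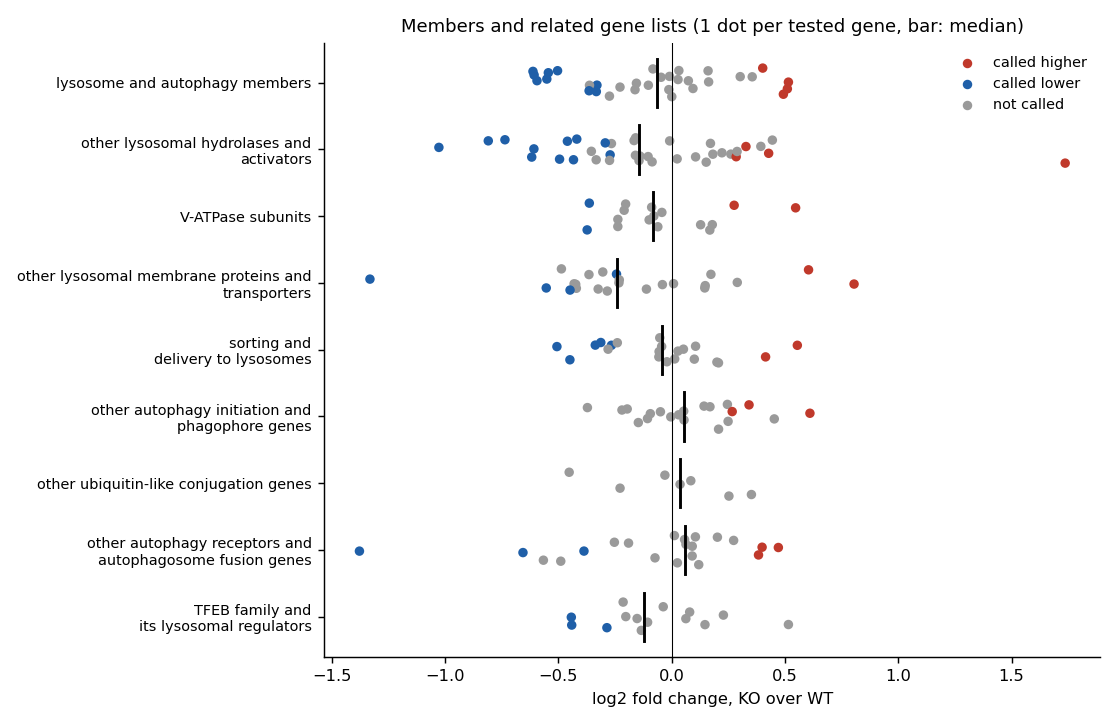
Log2 fold change of KO over WT (x axis) of each tested gene in the 32 genes and in the 8 related lists, 1 dot a gene, with red for genes that rose, blue for genes that fell, grey for genes not called and a black bar at the list's median. The medians run from -0.24 for other lysosomal membrane proteins and transporters to 0.06 for other receptors and fusion genes.

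Islets hold several cell types, and in these bulk libraries fewer cells of a type and less RNA per cell cannot be told apart. Macrophages have abundant lysosomes, and their 14 markers summed to 109 to 121 CPM in KO libraries and 97.8 to 116 CPM in WT libraries. In run 1 the KO sums (109.8 and 119.7 CPM) were above the WT sums (97.8 to 100.6 CPM), and in run 3 the groups overlapped. Of 12 tested markers 1 rose (Lyz2, 0.78, adjusted p = 0.0481) and 0 fell, and Mrc1 and Tyrobp were each at 0 in 1 WT library. Acinar markers, from digestive tissue that can adhere to islets, summed in run 1 to 456 and 2184 CPM in KO libraries and 2527 to 6415 CPM in WT libraries, and in run 3 to 80.2 and 235 CPM in KO libraries and 121 and 142 CPM in WT libraries. Their median log2 fold change was -1.85 in run 1 and 0.18 in run 3. Of 14 tested acinar markers 4 fell and 0 rose over both runs, all 14 had negative log2 fold changes, and the median was -1.16. Beta cell markers summed to 43168 to 83448 CPM in KO libraries and 48334 to 110731 CPM in WT libraries, and 6 of 11 fell and 0 rose, where 8.96% of all tested genes fell and 9.56% rose. Delta and PP cell markers summed in run 1 to 5291 and 5501 CPM in KO libraries and 3021 to 4021 CPM in WT libraries. In run 3 the sums were 3898 and 4792 CPM in KO libraries and 2975 and 3042 CPM in WT libraries. KO was above WT within each run. All 5 of these markers had positive log2 fold changes, and 2 of 5 rose, where 9.56% of all tested genes rose. In the fibroblast, alpha and Schwann lists 1 gene each rose, of 7, 6 and 5 tested, and 0 were called in the endothelial and duct lists (edgeR), where 1 of 12 tested genes had an unadjusted p under 0.05. Apart from fits with the acinar or the macrophage level as a term, the part of these lists in the differences of the 32 genes was not tested.

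When the acinar marker level was added to the model, 4 of the 32 genes rose and 7 fell, against 11.2% of tested genes called, and the calls of Cd63 (adjusted p = 0.143) and Gabarap (adjusted p = 0.105) were lost. When the macrophage marker level was added, 4 rose and 6 fell, against 11% of tested genes, and Scarb2 (adjusted p = 0.0613), Cd63 (adjusted p = 0.176) and Gabarap (adjusted p = 0.0543) were lost. Set against the Ogt f/f controls alone 5 rose, Becn1 among them, and 8 fell, Cd63 no longer, against 11.6% of tested genes. DESeq2 gave the same 4 rises and 9 falls, against 17.9% of tested genes called. The edgeR fit with Rn45s left out also gave them, against 18.5% of tested genes called.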

How the data were processed

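RNA-seq of 9 islet libraries (4 KO, 5 WT) was analysed from the authors' deposited tables. The authors deposited raw read counts per gene symbol and FPKM values, with 1 column per library, per the file headers. FastQC, Bowtie2 2.2.4.0, Cuffdiff 2.2.1, edgeR and the build mm10 are named without roles, per the submitters' processing notes. The labels' protocols name a stranded total RNA kit, while the counting tool and its use of strand are not given in the sources used here. Symbols that spreadsheet software had turned into dates (27 of 24420, with 0.133% to 0.186% of a library's counts) were left out, and 1406 symbols had 0 counts. Every column matched a sample.

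Counts were tested with edgeR 4.0.16 in R 4.3.3: TMM scaling, the default filter by genotype, a model of run and genotype, the quasi-likelihood test and Benjamini-Hochberg adjustment over all 12501 tested genes. SE values were derived from the F statistic, and CPM values use TMM-scaled library sizes. The same genes were fitted within each run, for the interaction and for the run term. Alternatives (26 per gene) included DESeq2 1.42.0, limma-voom (limma 3.58.1), limma on log2(FPKM + 1) and log2(FPKM + 0.1), other scaling and filters, cell marker covariates and left-out libraries. The script was tested on simulated data. Within a run, replicate libraries differed by a chi-square of 4.11 to 46.2 per degree of freedom over genes. Pairs of replicates across the runs reached 72.8. These chi-square values are above the counting noise alone, which does not show whether the libraries came from separate animals. They include Rn45s, which took 28.5% of the counts of WT replicate 2, 9.62% of WT replicate 4 and 24.3% of WT replicate 5. The 46.2 is between WT replicates 4 and 5, and the 72.8 between WT replicates 2 and 4. The part of Rn45s in them was not separated, so they do not measure all genes alike. Each library was counted as 1 sample. Total counts of 3796043 to 6073537 per library, Rn45s included, limit precision for genes at a few CPM, Tfeb above all.

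The 32 genes and the lists were chosen with earlier results of these data known. Named genes are the 32, Ogt, and in each related list up to 4 called genes with the lowest p, or 2 where none was called. Genes outside this rule are Grtp1, Scarna6 and the other overlapping genes, named for their position, and Lyz2, the only macrophage marker called. Rn45s is also outside it and is named for its share of the counts. Promoter sequences are RefSeq's on GRCm38.p6, and gene coordinates and overlaps are from the GENCODE annotation of GRCm38, with older symbols matched through RefSeq synonyms.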

Additional observations from a re-analysis of the deposited data

Results flagged for a closer look

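Among the 66 sets of KO or WT CPM values that were examined for a library standing apart from its group, 3 held one, and chance alone gives about 1 in 20. Ulk1 stood at 54.9 CPM in WT replicate 5, against 42.5 to 44.0 CPM in the other WT libraries. Becn1 stood at 80.3 CPM in KO replicate 2, against 90.2 to 91.5 CPM in the other KO libraries. Map1lc3a stood at 10.3 CPM in KO replicate 3, against 13.5 to 14.1 CPM in the other KO libraries. None of these 3 genes was called between KO and WT.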

How the results depend on the processing

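Called genes kept their sign in all 26 alternatives. Lamp2 and Neu1 were called in all 26, Ctsb and Ctsl in 25, Ctsa, Wipi2 and Atg16l1 in 24, Sqstm1 in 23, Scarb2 in 22, Gabarapl2 in 20, Optn in 19, Gabarap in 15 and Cd63 in 11. Over all genes 2315 were called, against 2240 with DESeq2, 672 without the run term, 1300 with FPKM and no filter, 1538 with Ogt f/f controls alone, 756 in run 1 alone, 1021 in run 3 alone, 1488 without both WT replicates 2 and 5, 1519 without KO replicate 2 and WT replicate 2, 1404 with the acinar covariate and 1369 with the macrophage covariate. Members that rose numbered 2 without the run term, 0 in run 1 alone and 1 in run 3 alone. Members that fell numbered 2 without the run term, 5 with FPKM and no filter and 4 in run 1 alone. The causes were not tested, although fits of 1 run use fewer libraries. Leaving out 1 library at a time gave 1595 to 2334 called genes, 4 to 5 members that rose, 7 to 11 that fell and a median log2 fold change of the members of -0.14 to -0.04. Between the runs, the same fits called 11 to 19 members and 2719 to 4243 of all genes. The interaction called 0 members in each of its fits, and with no filter on low counts it called 90 genes, against 0 with the filter. No paired analysis was possible because the labels number no replicates across the groups. Depth limits Tfeb most, at 11 to 34 reads a library.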
